A study of Mus musculus with 18 samples.

Results

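The superoxide dismutases and the enzymes that act beside them against reactive oxygen were followed in cultured mouse mammary fibroblasts, as 10 of the 55486 genes in the count table. The set holds the 3 superoxide dismutases (Sod1, Sod2, Sod3), 3 enzymes that remove hydrogen peroxide (Cat, Gpx1, Gpx3) and 4 genes known as targets of the transcription factor Nrf2 (Nqo1, Hmox1, Txnrd1, Gclc). Members were found by gene symbol. They were chosen with earlier results of these data known: Sod2 was selected on its higher counts in CD26+ cells given tumour medium than in CD26+ cells given control medium, so all values from that comparison are given as a description, without a p-value for any member. All 10 passed the filter on low counts.

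Superoxide is a by-product of respiration and of oxidase enzymes, and superoxide dismutases turn it into hydrogen peroxide in the cytosol (Sod1), in mitochondria (Sod2) and outside the cell (Sod3). Catalase and the glutathione peroxidases then reduce the peroxide to water, the latter at the cost of glutathione. Nrf2 is held low by Keap1 until electrophiles or oxidants appear, and then acts through antioxidant response elements at genes for glutathione synthesis, thioredoxin reduction and quinone and haem breakdown. Sod2 is better known as a gene induced by inflammatory cytokines through NF-kB.

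Normal fibroblasts (NFs) of the FVB/n mammary gland were sorted by surface CD26, a peptidase encoded by Dpp4, and each fraction was cultured over 7 days, either in a control medium or in medium conditioned by tumour cells (CM). The groups were CD26- NFs in control medium (n = 3), CD26- NFs in CM (n = 6), CD26+ NFs in control medium (n = 3) and CD26+ NFs in CM (n = 6). CM came from 6 lines grown from WEPtn tumours, a model of invasive lobular breast cancer in which the Wap promoter drives Cre in mammary epithelium, and each line supplied 1 culture of each cell type. According to the study's methods, several adult female mice were pooled for a sort and the cells had been passaged, and nothing says which libraries shared a sort, so p-values measure the spread between these cultures.

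Library totals ran from 9725723 to 14585349 counts. The 6 fibroblast markers (Col1a1, Col1a2, Pdgfra, Pdgfrb, Dcn, Lum) summed to 11900 to 13800 CPM in CD26- control, 7350 to 17400 CPM in CD26- CM, 39800 to 49700 CPM in CD26+ control and 23700 to 40300 CPM in CD26+ CM libraries, where CPM are counts scaled to a common library size. Lum was the lowest of them in CD26- control libraries, with a mean of 11.4 CPM. Most of the sum was Col1a1 and Col1a2, whose means were lower with CM in both fractions. In CD26+ NFs they went from 26700 to 14700 and from 16900 to 10500 CPM. Means of Pdgfra, Pdgfrb, Dcn and Lum were higher with CM in both fractions, with Dcn going from 390 to 3570 CPM in CD26+ NFs. Dpp4 was close to 0 in control medium in both fractions, with means of 0.0795 CPM in CD26- and 0.0517 CPM in CD26+ cells, and reached 0.371 and 3.54 CPM in CM. The CD26 label describes how the cells were sorted before culture. Epithelial genes (Epcam, Cdh1, 5 keratins and Trp63) summed to 3960 to 4350 CPM in CD26- control, 2410 to 3950 CPM in CD26- CM, 663 to 1170 CPM in CD26+ control and 586 to 1410 CPM in CD26+ CM libraries. The sort before culture had kept cells without EpCAM, CD49f, CD45 and CD31, per the study's methods. No CD26+ library reached a CD26- library in the epithelial sum. A covariate used below, the mean log2 CPM of these genes, therefore largely followed fraction. Between fractions it cannot tell the part of these genes from that of the fraction. The 7 immune markers summed to 14.6 to 29.7 CPM, with Ptprc, Adgre1, Cd3e and Cd79a under 1 CPM in every library and most of the sum in Csf1r (group means 17.5 to 21.7 CPM). In bulk RNA, fewer cells of a type and less RNA per cell cannot be told apart.

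Promoter sequence is shown for the 3 members whose RefSeq window held a match to an NF-kB or antioxidant response element motif, since these are the regulators named above. Each line gives bases -190 to -41 before a transcript start (GRCm38.p6, plus strand, 5′ to 3′), with capitals for matches on either strand to the NF-kB consensus, the antioxidant response element core TGACNNNGC or the GC box GGGCGG.
Sod2, chr17:13007649-13007798: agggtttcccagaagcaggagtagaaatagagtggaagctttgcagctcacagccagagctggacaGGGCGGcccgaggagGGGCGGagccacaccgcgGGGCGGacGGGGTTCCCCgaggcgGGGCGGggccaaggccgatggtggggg
Sod1, chr16:90220572-90220721: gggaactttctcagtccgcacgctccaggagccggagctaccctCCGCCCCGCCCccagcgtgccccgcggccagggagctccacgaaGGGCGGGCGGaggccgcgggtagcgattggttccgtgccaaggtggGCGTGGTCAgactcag
Txnrd1, chr10:82859016-82859165: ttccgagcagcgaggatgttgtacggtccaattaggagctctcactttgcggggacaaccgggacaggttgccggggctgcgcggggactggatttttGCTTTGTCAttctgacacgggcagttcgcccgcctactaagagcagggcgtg

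In Sod2 the NF-kB match began at base -83, between GC boxes at -91 and -67, and 2 further GC boxes lay at -124 and -109. The antioxidant response element core began at -56 in Sod1 and at -92 in the second of 3 Txnrd1 windows. In Sod1 the 4 GC boxes formed 2 overlapping pairs, and no match of one motif overlapped a match of another. Among 32851 windows of 250 bases in the table, 3.9% held the NF-kB consensus, 10.2% the antioxidant response element core and 32.7% a GC box. Windows were at hand for 7 of the 10 members. Cat, Gpx1, Gpx3 and Nqo1 had no match to the first 2 motifs in these 250 bases, and Sod3, Hmox1 and Gclc had no entry. A match is a string of letters, and occupancy was not measured.

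Sod2 (GRCm38, chr17:13006846-13040063), the mitochondrial manganese enzyme, was the member with the largest difference between media. CD26- control libraries held 44.4, 46.5 and 48.1 CPM, and CD26- CM libraries 86.6 at the lowest, 93.5 at the median and 128 CPM at the highest. CD26+ control libraries held 50.8, 54.4 and 56.4 CPM, and CD26+ CM libraries 188, 303 and 337 CPM at the lowest, median and highest. Every CM library lay above every control library in both cell types, and every CD26+ CM library lay above every CD26- CM library. In CD26- NFs Sod2 rose 2.15-fold with CM, a log2 fold change of 1.11 ± 0.16 (SE; adjusted p = 0.000366, edgeR quasi-likelihood test with Benjamini-Hochberg adjustment over 14273 genes). The difference in CD26+ NFs was 5.28-fold, or 2.40 ± 0.17 on the log2 scale, and the 2 effects differed by 1.29 ± 0.22, both given without a p-value for the reason above. In CM the CD26+ level was 2.85-fold the CD26- level (log2 1.51 ± 0.12), which is likewise a description. In control medium the fractions differed by 0.22 ± 0.18 (95% interval -0.16 to 0.59), also a description because the CD26+ control libraries took part in the choice of Sod2. That small difference had no overlap between libraries. With only the groups compared in the model it was 0.21 and past the limit, again a description. It changed sign to -0.27 with the epithelial genes as a covariate.

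Sod1 (chr16:90220754-90226329), the copper and zinc enzyme of the cytosol, varied little within groups, with a coefficient of variation between 2.76% and 4.23%. It held 109 to 118 CPM in CD26- control, 94.3 to 104 CPM in CD26- CM, 90.2 to 94.7 CPM in CD26+ control and 79.1 to 88.2 CPM in CD26+ CM libraries. Libraries of the 2 media did not overlap within either fraction. With CM it fell by 0.18 ± 0.04 on the log2 scale in CD26- NFs (adjusted p = 0.0117), and it was lower by nearly as much in CD26+ NFs (-0.16 ± 0.04). The fall in CD26- NFs did not pass without replicate 1 (adjusted p = 0.057) or replicate 2 (adjusted p = 0.0754), without the filter on low counts (adjusted p = 0.0504), or with the epithelial covariate (adjusted p = 0.0878). CD26+ NFs had less Sod1 than CD26- NFs, by -0.29 ± 0.05 in control medium (adjusted p = 0.000131) and -0.27 ± 0.04 in CM (adjusted p = 5.36e-06). With the epithelial covariate the control difference was -0.25 (adjusted p = 0.0505).

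Sod3 (chr5:52363791-52371418), the secreted enzyme that binds to extracellular matrix, differed between fractions and varied widely within CM. CD26- control libraries held 91.9, 100 and 132 CPM and CD26+ control libraries 394, 396 and 443 CPM. CM libraries ranged from 61.2 to 212 CPM (median 128) in CD26- and from 145 to 466 CPM (median 289) in CD26+ NFs, so that libraries with and without CM overlapped in each fraction. The CD26+ excess was 3.81-fold in control medium (log2 1.93 ± 0.46, adjusted p = 0.0019) and 2.31-fold in CM (log2 1.21 ± 0.32, adjusted p = 0.00337). With the epithelial covariate these were 2.32 (adjusted p = 0.0378) and 1.55 (adjusted p = 0.0703). Sod3 levels of the fractions overlapped in CM, but with the CM of each line the CD26+ culture held more than the CD26- culture. The fibroblast marker sum given above, mostly Col1a1 and Col1a2, was higher in every CD26+ library than in any CD26- library. The part of this sum in the Sod3 difference was not tested. CM effects were not detected: 0.27 ± 0.39 in CD26- NFs (95% interval -0.56 to 1.10; adjusted p = 0.69) and -0.45 ± 0.37 in CD26+ NFs. The CD26+ interval ran from -1.24 to 0.34, so both intervals hold changes in either direction. The difference between the CM effects, -0.72 ± 0.54 (adjusted p = 0.443), passed once the tumour line was a block in the model (-0.76, adjusted p = 0.0031).

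**Figure D1:**
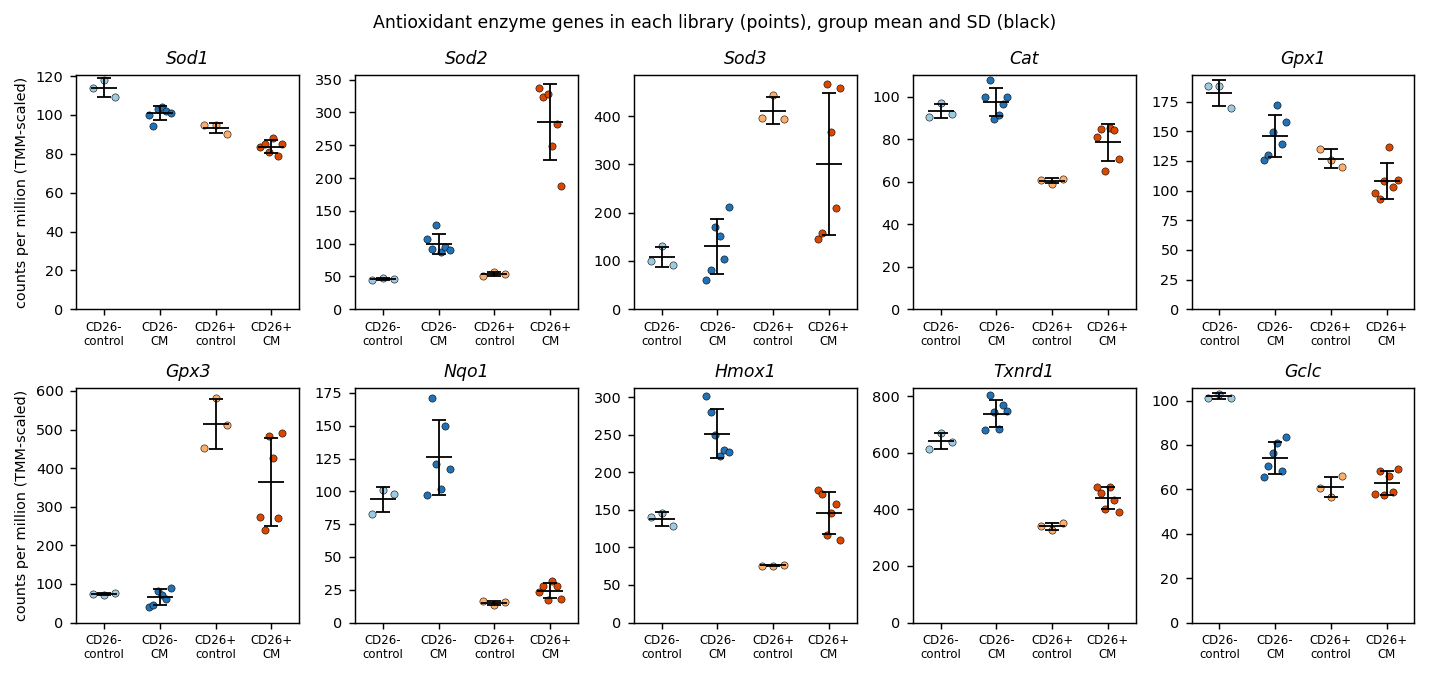
CPM of each member (y axis, linear from 0) in the 18 libraries by group (x axis), with points for libraries and black bars for the group mean ± SD. Sod2 is highest in CD26+ CM libraries (188 to 337 CPM), Sod3 and Gpx3 are highest in CD26+ NFs, and Nqo1, Hmox1 and Txnrd1 reach their highest levels in CD26- CM libraries.

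Gpx3 (chr11:54902453-54910377), a secreted glutathione peroxidase, showed the largest excess in CD26+ NFs. It held 70.5, 74.3 and 75.5 CPM in CD26- control libraries against 452, 512 and 581 CPM in CD26+ control libraries. In CM the ranges were 40.4 to 90.5 CPM (median 66.5) and 241 to 490 CPM (median 350). The fractions did not overlap in either medium. The excess was 7.01-fold in control medium (log2 2.81 ± 0.31, adjusted p = 1.01e-06) and 5.57-fold in CM (log2 2.48 ± 0.22, adjusted p = 4.01e-08), and it remained past the test with the epithelial covariate (3.12 and 2.74). As for Sod3, the higher fibroblast marker sum of CD26+ NFs stands beside this excess, and its part was not tested. CM effects were -0.17 ± 0.26 in CD26- NFs (95% interval -0.71 to 0.37; adjusted p = 0.704) and -0.50 ± 0.24 in CD26+ NFs, where libraries overlapped.

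Gpx1 (chr9:108338903-108340343), the main glutathione peroxidase of the cytosol, went the other way between fractions. CD26- libraries held 170 to 188 CPM in control medium and 126 to 172 CPM in CM, and CD26+ libraries 120 to 135 and 93.0 to 137 CPM. The fractions were apart in control medium and overlapped in CM, but with the CM of each line the CD26+ culture held less than the CD26- culture. Gpx1 was lower in CD26+ NFs by -0.52 ± 0.12 in control medium (adjusted p = 0.00191) and -0.43 ± 0.09 in CM (adjusted p = 0.000404), but these were -0.06 (adjusted p = 0.838) and -0.04 (adjusted p = 0.857) with the epithelial covariate. With CM it fell by 0.32 ± 0.11 in CD26- NFs (adjusted p = 0.0476), a call so near the limit that it held only without replicate 7, 9, 14 or 16 among the 18 single omissions. With the epithelial covariate it was -0.15 (adjusted p = 0.408). In CD26+ NFs the difference was -0.23 ± 0.11. Between fractions this covariate cannot tell epithelial RNA from fraction, as given above, and the part of epithelial RNA was not tested otherwise.

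Cat (chr2:103453849-103485160), the catalase of peroxisomes, held 90.6, 92.0 and 96.9 CPM in CD26- control and 59.0, 60.9 and 61.5 CPM in CD26+ control libraries. CM libraries held 89.3 to 108 CPM (median 98.4) in CD26- and 64.9 to 85.4 CPM (median 82.6) in CD26+ NFs. CM therefore lay above control in every CD26+ library and overlapped control in CD26- NFs. The values were 0.38 ± 0.08 in CD26+ NFs and 0.07 ± 0.08 in CD26- NFs (95% interval -0.10 to 0.23; adjusted p = 0.607). Their difference of 0.31 ± 0.11 missed the limit (adjusted p = 0.0911) and passed with the line as a block (adjusted p = 0.022), without replicate 15 (adjusted p = 0.0378) and without replicate 18 (adjusted p = 0.0488). CD26+ NFs had less Cat, by -0.62 ± 0.09 in control medium (adjusted p = 2.18e-05) and -0.31 ± 0.06 in CM (adjusted p = 0.000422), the latter -0.25 (adjusted p = 0.153) with the epithelial covariate.

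Nqo1 (chr8:107388225-107403206), a quinone reductase often used as a reporter of Nrf2, was the member most biased to CD26- NFs. CD26- control libraries held 83.0, 97.9 and 101 CPM and CD26+ control libraries 13.1, 15.4 and 16.3 CPM. In CM the ranges were 97.1 to 171 CPM (median 119) and 17.5 to 31.9 CPM (median 25.3). No CD26+ library reached any CD26- library. The CD26+ level was 0.159 times the CD26- level in control medium (log2 -2.65 ± 0.23, adjusted p = 1.1e-07) and 0.193 times in CM (log2 -2.37 ± 0.16, adjusted p = 2.52e-09), and with the epithelial covariate the log2 values were -2.48 and -2.22, both past the test. With CM, Nqo1 was higher by 0.71 ± 0.21 in CD26+ NFs, with no overlap, and differed by 0.43 ± 0.18 in CD26- NFs (adjusted p = 0.12), where libraries overlapped.

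Hmox1 (chr8:75093621-75100589), haem oxygenase 1, was higher with CM by like amounts in both fractions. CD26- libraries held 128, 140 and 146 CPM in control medium and 222 to 301 CPM (median 240) in CM. CD26+ libraries held 75.5, 75.7 and 76.9 CPM in control medium and 110 to 177 CPM (median 152) in CM. No CM library overlapped a control library of its fraction. Hmox1 rose 1.82-fold in CD26- NFs (log2 0.86 ± 0.14, adjusted p = 0.000704) and was 1.93-fold higher in CD26+ NFs (log2 0.95 ± 0.14). The difference of these effects was 0.08 ± 0.19 (95% interval -0.32 to 0.48; adjusted p = 0.834). CD26+ NFs had less Hmox1 in control medium (-0.86 ± 0.16, adjusted p = 0.000175) and in CM (-0.78 ± 0.11, adjusted p = 7.79e-06).

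Txnrd1 (chr10:82833951-82897712), the cytosolic thioredoxin reductase, had the highest CPM of the set in CD26- NFs, on a scale not corrected for gene length, with 615, 637 and 672 CPM in CD26- control and 327, 340 and 353 CPM in CD26+ control libraries. CM libraries held 680 to 806 CPM (median 748) and 390 to 480 CPM (median 447). Neither fractions nor media overlapped. It was lower in CD26+ NFs by -0.92 ± 0.08 in control medium (adjusted p = 1.68e-07) and -0.75 ± 0.06 in CM (adjusted p = 1.38e-08). The CM effect was 0.20 ± 0.07 in CD26- NFs (adjusted p = 0.0634), which passed without replicate 7 (adjusted p = 0.0385) or replicate 18 (adjusted p = 0.0405), and 0.37 ± 0.07 in CD26+ NFs.

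Gclc (chr9:77754535-77794485), the catalytic subunit for the first step of glutathione synthesis, was the only Nrf2-type member that fell with CM in CD26- NFs. Libraries held 101, 101 and 103 CPM in CD26- control and 65.6 to 83.6 CPM (median 73.4) in CD26- CM. CD26+ libraries held 56.7, 60.5 and 65.9 CPM in control medium and 57.5 to 69.3 CPM (median 62.4) in CM. CM libraries lay below control in CD26- NFs and overlapped control in CD26+ NFs. Gclc fell by 0.46 ± 0.08 in CD26- NFs (adjusted p = 0.00146), was at 0.05 ± 0.08 in CD26+ NFs, and the effects differed by 0.50 ± 0.11 (adjusted p = 0.0154), a call lost without replicate 11 (0.43, adjusted p = 0.0685). The CD26+ level was 0.600 times that of CD26- NFs in control medium (log2 -0.74 ± 0.09, adjusted p = 5.02e-06) and 0.849 times in CM (log2 -0.24 ± 0.07, adjusted p = 0.00546), the latter -0.16 (adjusted p = 0.375) with the epithelial covariate.

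**Figure D2:**
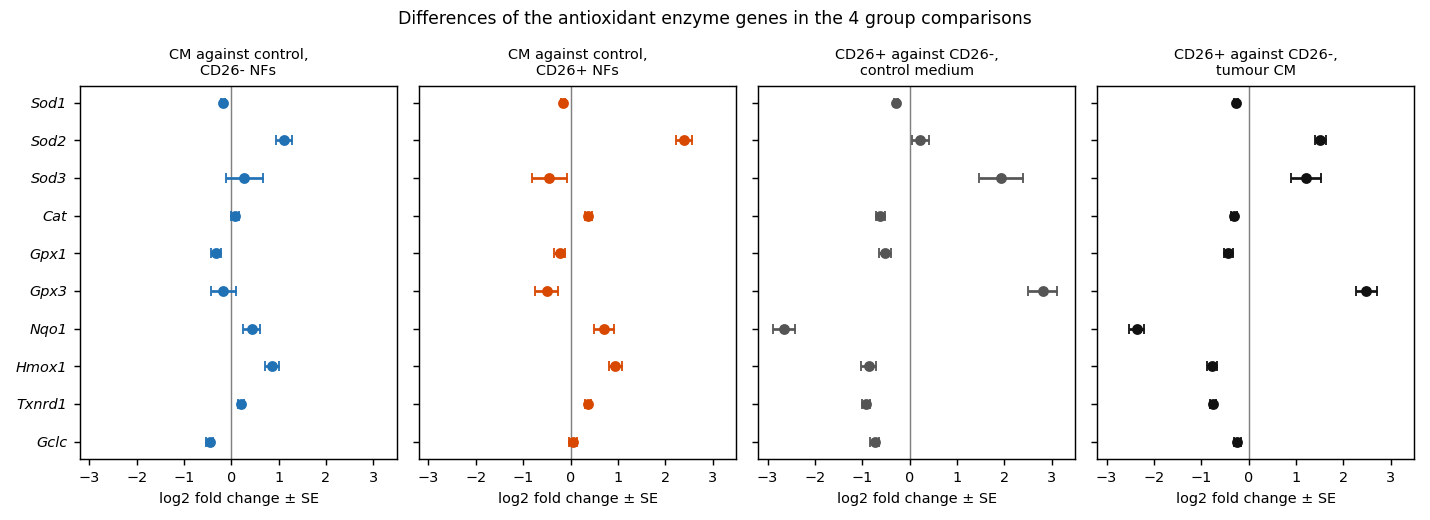
Log2 fold change ± SE (x axis) of each member (y axis) in the 4 group comparisons, one per panel. Sod2 lies at 1.11 and 2.40 for CM in CD26- and CD26+ NFs, while Gpx3 (2.81) and Nqo1 (-2.65) lie at the ends of the comparison of fractions in control medium.

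Counted over the set, 2 of 10 members rose (Sod2, Hmox1) and 3 fell (Sod1, Gpx1, Gclc) with CM in CD26- NFs, where 7.88% of all 14273 tested genes rose and 7.28% fell. With the epithelial covariate 3 members (Sod2, Hmox1, Gclc) were past the limit, while the count over all genes went from 2164 to 558. Pericyte markers summed to 144 to 161 CPM in CD26- control and 46.7 to 92.3 CPM in CD26- CM libraries. The muscle genes Myog, Des and Myh3 averaged under 1 CPM in control and 5.36, 8.84 and 14.1 CPM in CM libraries. Acta1 went the other way, from 63 to 48.5 CPM, and the muscle sums overlapped (48.5 to 75.8 and 46.1 to 117 CPM). The part of these markers was not tested. In CD26+ NFs, the comparison used in choosing Sod2, the same limit lay below 5 positive values (Sod2, Hmox1, Nqo1, Cat, Txnrd1) and 1 negative value (Sod1), and 15.2% of all genes were past it upward and 13.4% downward. Nothing is read from that count. Medians over the members were 0.14 and 0.21, against 0.00 to 0.01 over all genes. In control medium 2 members were higher in CD26+ NFs (Gpx3, Sod3) and 7 lower, against 25.0% and 25.4% of all genes, and the median was -0.57. In CM 2 were higher (Gpx3, Sod3) and 7 lower, with Sod2 given only as a description, against 29.3% of all genes in each direction, and the median over the 10 was -0.29. The epithelial sum was also higher in CD26- NFs, as given above. So were the sums of pericyte markers (37.1 to 56.4 CPM in CD26+ control libraries) and skeletal muscle markers (48.5 to 75.8 against 12.1 to 18.2 CPM). The muscle sum was mostly Acta1, with means of 63 CPM in CD26- and 15.1 CPM in CD26+ control libraries. With the epithelial covariate 7 members were past the limit in control medium and 6 in CM, Sod2 among the latter, and the counts over all genes were 2855 in place of 7186 and 3527 in place of 8360, and the part of the other markers was not tested. The difference in CM effect was past the limit for Gclc, on the positive side, where 4.53% of all genes were positive and 3.01% negative past it. Sod2 is left out of that count because the CD26+ libraries of this comparison were used in choosing it. Besides these, Cat was the only member with an unadjusted edgeR p under 0.05, also on the positive side. Comparisons that share libraries are not independent of each other. With the study's further limit of 2 on the log2 scale, Gpx3 and Nqo1 remained between fractions, where 852 genes remained in control medium and 594 in CM.

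Levels of different genes were compared per kilobase of annotated exon, taking all exons of a gene together in GENCODE M21, which can exceed the length of the transcripts these cells use. On this scale Gpx1 led in CD26- control libraries with 126 ± 7.50 CPM per kb (SD, n = 3), and Sod2 was last with 4.63 ± 0.183. In CD26+ control libraries Gpx3 led with 284 ± 35.4, followed by Sod3 with 110 ± 7.42, and Sod2 was again last with 5.38 ± 0.281. In CM, Hmox1 took the first place in CD26- NFs (144 ± 18.5, n = 6), and in CD26+ NFs Sod2 reached 28.4 ± 5.78 (n = 6), overlapping its neighbours Cat (30.0 ± 3.30) and Sod1 (21.1 ± 0.806). Sod3 and Sod1 were level in CD26- control libraries, at 28.9 ± 5.58 and 28.7 ± 1.21.

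The 6 tumour lines allowed a further comparison, since each line's CM was given to 1 culture of each fraction. With a term for fraction and one for line over the 12 CM libraries, Sod3, Gpx3 and Gpx1 differed among lines, 3 of 10 members, where 6.56% of 13344 tested genes did. Sod3 spanned 3.29-fold between the lowest and highest line (adjusted p = 0.000876), Gpx3 2.01-fold (adjusted p = 0.00361) and Gpx1 1.41-fold (adjusted p = 0.0156), against a median of 1.25-fold over all genes. The Gpx1 call was lost without replicate 16, the CD26+ library with CM of 13-MCB-44 (adjusted p = 0.0814).

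In Sod3 the lines fell into the same low and high sets in both fractions. In CD26- NFs the levels were 61.2 CPM with 13-MCB-17, 82.3 with 10-SJK-221, 104 with 13-MCB-90, 152 with 13-MCB-44, 170 with 18-MCB-12 and 212 with 13-MCB-138. In CD26+ NFs they were 145, 158, 210, 368, 466 and 458 CPM in that order of lines. Against the control mean this is 0.567-fold to 1.96-fold in CD26- and 0.352-fold to 1.13-fold in CD26+ NFs, so CM of some lines lay below and of others above control.

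Gpx3 followed a like order, with 40.4, 45.3, 60.6, 72.4, 82.9 and 90.5 CPM in CD26- NFs and 274, 241, 271, 427, 482 and 490 CPM in CD26+ NFs. Gpx1 was highest with 13-MCB-44 in both fractions, at 172 and 137 CPM. The epithelial sum was highest with this line too. It was 3950 CPM against 2410 to 3280 CPM in CD26- NFs, and 1410 CPM against 586 to 989 CPM in CD26+ NFs. The part of epithelial RNA in the Gpx1 line difference was not tested. Over the 6 lines the log2 levels of the 2 fractions correlated with r = 0.97 for Sod3, 0.91 for Gpx3 and 0.92 for Gpx1, and with r from -0.44 (Txnrd1) to 0.59 (Sod2 and Hmox1) for the other 7 members. This is a description over 6 points that share the CM, and a line effect that passes the test favours genes whose fractions go together. The fibroblast marker sum moved with this order: it was 7350 to 9710 CPM with 13-MCB-17, 10-SJK-221 and 13-MCB-90 against 12200 to 17400 CPM with the other lines in CD26- NFs, and 23700 to 25900 against 32600 to 40300 CPM in CD26+ NFs. This sum was mostly Col1a1 and Col1a2, as given above, and its part in the line differences was not tested.

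Sod2 was above the control mean with every line, from 1.87-fold to 2.76-fold in CD26- and from 3.49-fold to 6.26-fold in CD26+ NFs. Its line effect was 1.57-fold, given without a p-value because the CD26+ CM libraries took part in the choice of Sod2. On the log2 scale it was 0.65, with 0.91 without replicate 9 and 0.47 without replicate 18. Replicates 9 and 18 were the cultures with CM of 13-MCB-138, the line with the lowest Sod2 in CD26+ NFs (188 CPM). Hmox1 was likewise above control with every line, from 1.60-fold to 2.18-fold and from 1.44-fold to 2.32-fold, with a line effect of 1.46-fold (adjusted p = 0.132) that passed with DESeq2 (adjusted p = 0.0347), without the filter (adjusted p = 0.000415) and without replicate 9 (adjusted p = 0.041). Gclc was below the control mean with every line in CD26- NFs, from 0.645-fold to 0.822-fold.

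**Figure D3:**
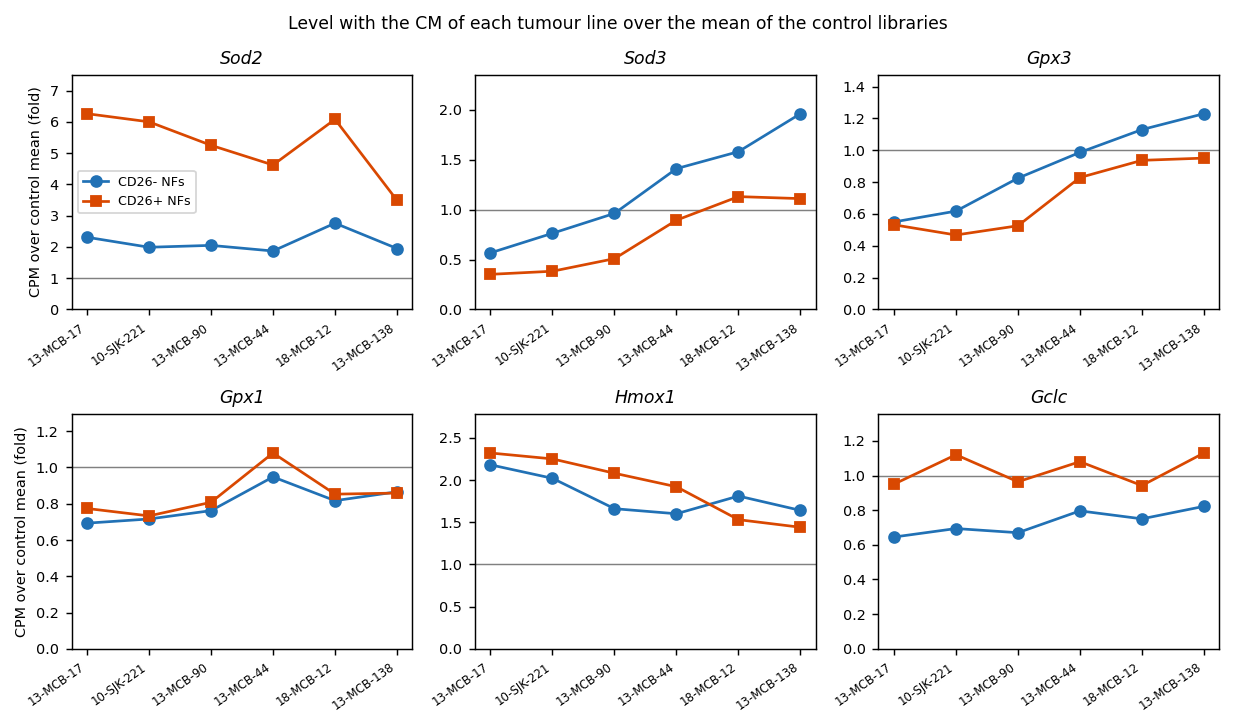
CPM with CM of each tumour line divided by the mean of the 3 control libraries of the same fraction (y axis, grey line at 1), for 6 members, with lines on the x axis in the order of Sod3 in CD26- NFs. Sod3 and Gpx3 are lower with the 3 lines on the left than with the 3 on the right in both fractions, Sod2 and Hmox1 stay above 1 throughout, and Gclc stays below 1 in CD26- NFs.

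Other genes of the same pathways were counted from lists. With CM 7.88% of all tested genes rose and 7.28% fell in CD26- NFs, and 15.2% and 13.4% were past the limit in CD26+ NFs, so a larger count in CD26+ NFs was common to genes at large. Medians over all genes lay between 0.00 and 0.01 on the log2 scale. Of 12 further Nrf2-type targets, 5 rose with CM in CD26- NFs and 7 did not pass, and those that rose included Blvrb, a biliverdin reductase (0.89, adjusted p = 0.00357), and Aldh3a1, an aldehyde dehydrogenase (0.83, adjusted p = 0.0363). In CD26+ NFs 9 were past the limit upward and 3 did not pass, with Akr1b8 at 0.92 and the glutathione conjugate exporter Abcc1 at 0.89. The list medians were 0.39 and 0.64. Of 10 Nrf2 regulators 2 fell and 8 did not pass in CD26- NFs, those that fell being the repressors Bach2 (-0.99, adjusted p = 0.00208) and Bach1 (-0.24, adjusted p = 0.0385). In CD26+ NFs 4 were higher, including Nrf2 itself (Nfe2l2, 0.67), and Bach1 was lower (-0.28). The list medians were -0.01 and 0.18.

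Of 11 NF-kB subunits and feedback genes 2 rose with CM in CD26- NFs, against 7.88% of all genes: Nfkbiz (0.93, adjusted p = 0.000348) and Nfkb1 (0.20, adjusted p = 0.0494). In CD26+ NFs 8 of 11 were past the limit upward, against 15.2%, with the inhibitor Nfkbia at 1.74 and the deubiquitinase Tnfaip3 at 1.62. The list medians were 0.20 and 1.12. The difference in CM effect was positive past the limit for 7 of the 11, against 4.53% of all genes, with a median of 0.85. In control medium 9 of the 11 were lower in CD26+ NFs, against 25.4%, with a median of -0.38 and Tnfaip3 the lowest (-2.40, adjusted p = 8.85e-06). The epithelial, pericyte and muscle marker sums were lower in CD26+ control libraries too, and the part of these markers in this count was not tested.

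Among peroxiredoxins and sulfiredoxin, 2 of 7 rose in CD26- NFs, Prdx5 (0.44, adjusted p = 0.00726) and Prdx6 (0.33, adjusted p = 0.0101), and 4 of 7 were higher in CD26+ NFs, with Prdx6 at 0.76 and list medians of 0.11 and 0.24. Of 9 thioredoxin and glutaredoxin genes 2 rose in CD26- NFs, and Glrx, which removes glutathione from protein thiols, had the largest value in both fractions (1.30, adjusted p = 0.00656, and 2.88), beside list medians of 0.05 and 0.10. Of 9 copper-handling genes 2 rose in CD26- NFs, the metallothioneins Mt2 (1.76, adjusted p = 0.00145) and Mt1 (1.18, adjusted p = 0.00389), which bind copper and zinc, and these stood at 2.79 and 1.78 in CD26+ NFs, where 5 of 9 were higher and 1 lower. The list medians were 0.12 and 0.35.

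Of 10 genes of glutathione synthesis and recycling, 1 rose and 1 fell in CD26- NFs: Slc7a11, the cystine importer (0.83, adjusted p = 0.00788), and Ggct (-0.52, adjusted p = 0.00881). Between fractions in control medium Ggt5, which cleaves glutathione conjugates at the cell surface, was higher in CD26+ NFs by 4.38 (adjusted p = 7.8e-08), and glutathione reductase (Gsr) was lower by -1.47 (adjusted p = 3.9e-08). Of 18 glutathione transferases tested, 3 rose and 1 fell in CD26- NFs, and 8 were higher and 3 lower in CD26+ NFs, with medians of 0.24 and 0.35. Gsta4, which conjugates lipid peroxidation products, fell by 0.41 in CD26- NFs (adjusted p = 0.00982) and stood at -1.23 in CD26+ NFs. Gstm1 stood at 1.33 in CD26+ NFs, but counts of Gstm and Gstp genes are uncertain because reads can be shared with near-identical copies.

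Of 7 NADPH-supplying genes 2 rose and 1 fell in CD26- NFs, with glucose-6-phosphate dehydrogenase (G6pdx) at 0.33 (adjusted p = 0.00442). The 3 other glutathione peroxidases tested had a median log2 value of -0.08 with CM in CD26- and -0.09 in CD26+ NFs. Of 3 partners of haem oxygenase, Por, the reductase that supplies its electrons, was past the limit in CD26+ NFs (0.48). Among 7 tested genes that produce superoxide or peroxide, Xdh (1.38, adjusted p = 0.0043) and Cyba (0.57, adjusted p = 0.0046) rose with CM in CD26- NFs, and 2 fell, among them Nox4, an oxidase that releases hydrogen peroxide (-0.97, adjusted p = 0.000301). Nox4 was also lower in CD26+ than CD26- NFs in control medium (-1.20, adjusted p = 8.95e-06).

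**Figure D4:**
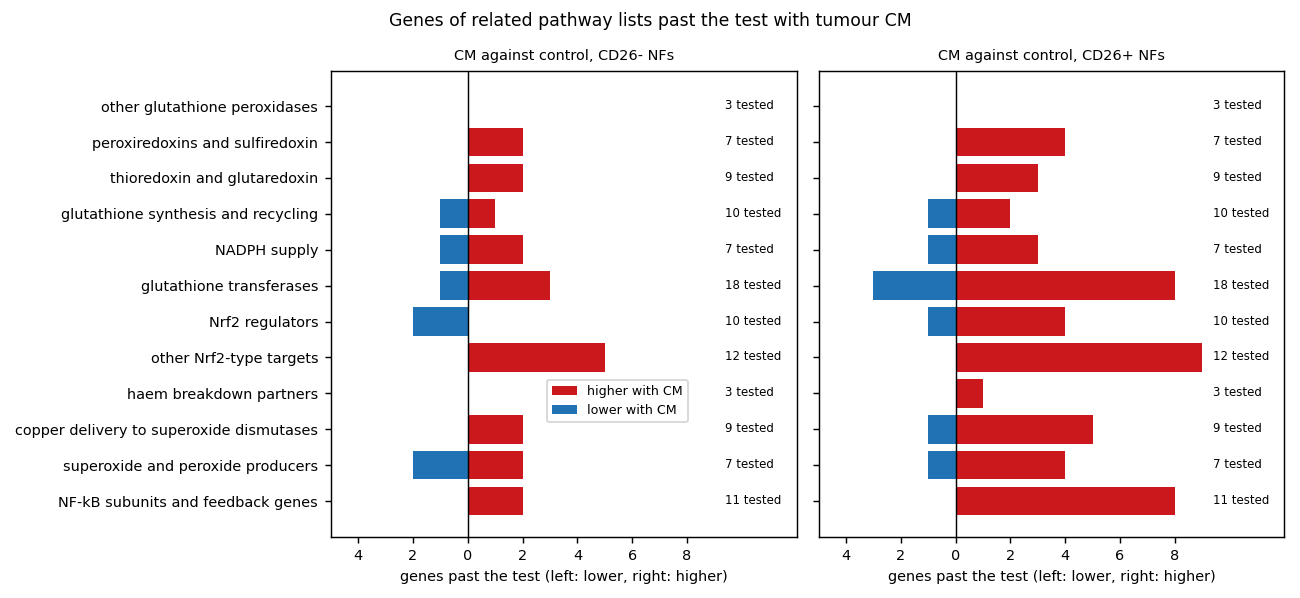
Number of genes past the test with CM (x axis, higher to the right in red and lower to the left in blue) in each pathway list (y axis), for CD26- NFs (left) and CD26+ NFs (right), with the number tested beside each bar. The NF-kB list holds 2 higher genes in CD26- NFs and 8 in CD26+ NFs, and the further Nrf2-type targets 5 and 9.

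Over all 18 libraries, the genes whose log2 CPM correlated most with Sod2 were Gng12 (r = 0.989), Mt2 (0.986), Mark1 (0.984), Rac3 (0.980) and Gpr176 (0.980). Mt2 held 11.8, 39.9, 19.6 and 135 CPM on average in CD26- control, CD26- CM, CD26+ control and CD26+ CM libraries, where Sod2 held 46.3, 99.8, 53.9 and 285 CPM. For Sod3 the nearest were Pkdcc (0.970), Fabp7 (0.969), Slc38a10 (0.963), Creb3l3 (0.959) and Stox2 (0.955), and for Sod1 they were Me1 (0.955), Mgll (0.952), Hsdl2 (0.950), Mrps6 (0.949) and Adipor1 (0.949). These are descriptions, since libraries of a group and a line share cells or medium.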

How the data were processed

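Raw counts per Ensembl gene, 1 column per library, were deposited by the authors without normalization. The submitters' processing notes name HISAT2 2.1.0, HTSeq and GRCm38, and the libraries were stranded and single-end. The strand setting of the counting and the annotation release are not given in the sources used here. No member shared exon bases with an overlapping gene in GENCODE M21, which also gave exon lengths and had the coordinates of 99.4% of the genes.

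The 10 members and the gene lists were chosen with earlier results of these data known. Groups were taken from the labels. Genes were kept with filterByExpr (14273), scaled with TMM and tested with edgeR 4.0.16 (quasi-likelihood F, R 4.3.3), with all 18 libraries in 1 model with a term per group. The common biological coefficient of variation was 0.117. Adjusted p-values are Benjamini-Hochberg over all tested genes, with a limit of 0.05, SE is the log2 fold change divided by the root of F, and 95% intervals use the degrees of freedom of the fit. CPM are the deposited counts scaled by TMM library size, and log2 CPM used a prior count of 2. The study itself used DESeq2 with a log2 limit of 2, and both were run as alternatives (DESeq2 1.42.0). Lines were compared over the 12 CM libraries (13344 genes) with a term for fraction.

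The line pairs libraries: in each of the 6 pairs with the same CM the residuals correlated (r between 0.247 and 0.406), so the line served as a replicate block in an alternative. Further alternatives were other scalings, no filter, the groups compared alone, the mean log2 CPM of the epithelial genes as a covariate and each library left out. From each list, up to 2 genes up and 2 down with the largest change among those past the limit and at least 5 CPM in the higher group could be named, and 5 nearest genes for each superoxide dismutase. No library was a copy of another (lowest chi-square per degree of freedom 3.05). Promoter windows came from RefSeq (GRCm38.p6). Counting error was not estimated apart from the spread between libraries.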

Additional observations from a re-analysis of the deposited data

Results flagged for a closer look

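Sod2 responded to CM more in CD26+ than in CD26- NFs, with a difference in log2 effect of 1.29 ± 0.22. Sod2 was chosen for its CM response in CD26+ NFs, which enters this difference, so no p-value is given. Gclc also differed between the fractions, by 0.50 ± 0.11 (adjusted p = 0.0154, edgeR), with all 6 CD26- CM libraries below control and CD26+ libraries overlapping control. Gpx1 in CD26+ NFs with CM of 13-MCB-44 stood apart from the other 5 libraries of its group, at 137 CPM against 93.0 to 109 CPM. This was 1 of 20 gene and group pairs examined, and chance marks about 1 in 20. Gpx1 was also highest with this line in CD26- NFs, at 172 CPM. The epithelial sum was highest with this line in both fractions, at 3950 CPM in CD26- and 1410 CPM in CD26+ NFs. Its part was not tested.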

How the results depend on the processing

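Counts of members past the limit (5, 6, 9, 10, 2 and 3 for CM in CD26-, CM in CD26+, fractions in control medium, fractions in CM, difference in CM effect and lines, with Sod2 counted as any other member) stayed within 1.5 times under DESeq2, other scalings and no filter, except for lines, where DESeq2 gave 5 (1373 genes in all, in place of 876) and no filter gave 6 (2475). A log2 limit of 2 left 0, 1, 2, 2 and 0 for the first 5, and 129, 287, 852, 594 and 56 genes in all. The epithelial covariate gave 3 for CM in CD26- NFs (558 genes in all, in place of 2164) and 6 for fractions in CM (3527, in place of 8360). With the line as a replicate block the difference in CM effect had 4 members in place of 2, and 2516 genes in place of 1075, and the comparison of fractions in CM kept 10. Leaving out single libraries gave 3 to 6 for CM in CD26- NFs (3 without replicate 1 or 2), 1 to 3 for the difference (1 without replicate 11) and 2 to 5 for lines (5 without replicate 9, with 2060 genes in all). Signs turned only where values were near 0 or the epithelial covariate was used: the Sod1 difference in CM effect (-0.01 with upper-quartile scaling, and -0.02 to 0.04 over the alternatives), the Gpx1 difference (-0.01 to 0.14), Gclc with CM in CD26+ NFs (-0.02 to 0.10) and Sod2 between fractions in control medium (-0.27 with the covariate). The cause was not tested. With 3 control libraries per fraction, what depth and what the number of libraries contribute to the errors was not told apart.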
